A study of Mus musculus with 12 samples.

Results

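Subjective night was compared with subjective day in the transcriptome of mouse CD8+ T cells, the cytotoxic lymphocytes that recognise peptides on MHC class I. The night group held 6 libraries, taken at circadian times (CT) 14, 18 and 22 h, and the day group held 6 libraries, taken at CT2, CT6 and CT10, with 1 library per time on each of 2 collection days. Groups were formed from the time point label alone, and they took up all 12 libraries of the series. All cells came from lymph nodes of male C57BL/6J mice, 8 weeks old, that carried no stated genetic change and were kept in constant darkness until they were killed. The labels give neither the number of mice behind a sample nor whether samples came from separate animals, so p-values measure the spread between these samples only.

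In constant darkness, daily rhythms are driven by the internal clock, and mice are active in the subjective night and rest in the subjective day. In each cell the factors BMAL1 and CLOCK switch on the period and cryptochrome genes, whose products later repress that activity, and the nuclear receptors REV-ERB and ROR set the level of BMAL1. Around this loop, body temperature, feeding and adrenal hormones also follow the cycle. Body temperature acts on heat shock genes and on cold-inducible RNA-binding genes, and hormones act on the migration of lymphocytes through lymph nodes.

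Depth, as the sum of counts over genes, lay between 24689964 and 33497078. It averaged 28774400 ± 3214870 counts at night and 26958100 ± 1385780 by day (SD, n = 6 each), with an exact two-sided permutation p of 0.279, where the smallest possible is 0.00216. Mitochondrial genes took 2.67 ± 0.108% of the counts at night and 2.80 ± 0.342% by day (SD, n = 6 each, exact permutation p = 0.448). The labelled cell type was clear in every library. The co-receptor gene Cd8a had 1303, 1416 and 1451 CPM (lowest, median, highest) at night and 1246, 1399 and 1604 CPM by day, where CPM is the count scaled to library size with TMM factors. The library of CT2 on collection day 1 stood apart from the others. The chi-square per degree of freedom between the 2 libraries of a time was 40.2 at CT2 and 3.07 to 10.6 at the other 5 times, and that library alone had its long transcripts low against its short ones, by -0.25 log2, where the other 11 lay between -0.03 and 0.09. Calls within gene lists are also given without it where they changed. They are to be read beside the counts over all genes in that setting, given below.

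Between night and day, 69 of 15266 tested genes differed at an adjusted p under 0.05 (0.452%), by edgeR's quasi-likelihood test. Of these, 28 rose at night (0.183%) and 41 fell (0.269%). Most differences were small. Their median size was 0.28 on the log2 scale, and 59 of the 69 were under 1.5-fold, with a range from 0.16 for Adam17 to 3.02 for Hspa1a. With no adjustment, 2797 genes had a p under 0.05, of which 1355 were higher and 1442 lower at night. All 6 night libraries lay above all 6 day libraries for 140 genes (0.917%) and below them for 174 genes (1.14%). The 2 groups did not overlap for 27 of the 28 genes that rose and 37 of the 41 that fell.

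The set of called genes depended on single libraries. The count was 831 without CT2 of collection day 1 (288 higher and 543 lower at night), and all 69 were among them. It was 8 without CT2 of collection day 2, 20 and 0 without CT6 of day 1 and day 2, and 1 and 10 without the CT10 libraries. It was 0 without CT14 of day 1 or of day 2, 10 and 15 without the CT18 libraries, and 14 and 15 without the CT22 libraries. With the collection day as a replicate block 8 genes were called, all among the 69: Slc16a10, Elavl1, Pecam1, Slamf6, Acvrl1, Hspa1b, Klhl6 and Ywhag. In a fit with 1 mean for each circadian time, which does not count the steps between times as error, 337 genes differed between the mean of the night times and that of the day times, again with all 69 among them. The counts of 0 came from edgeR's quasi-likelihood test, and unadjusted p-values under 0.05 then numbered 2578, 2420 and 2273 genes. DESeq2 with all libraries called 565 genes, 68 of the 69 among them. The difference kept its sign for all 69 in each of these fits, which was nearly fixed in advance. The genes were chosen from these same libraries, and 27 that rose and 37 that fell had groups without overlap. No call named below held without CT6 of collection day 2, without CT14 of day 1 or without CT14 of day 2.

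**Figure D1:**
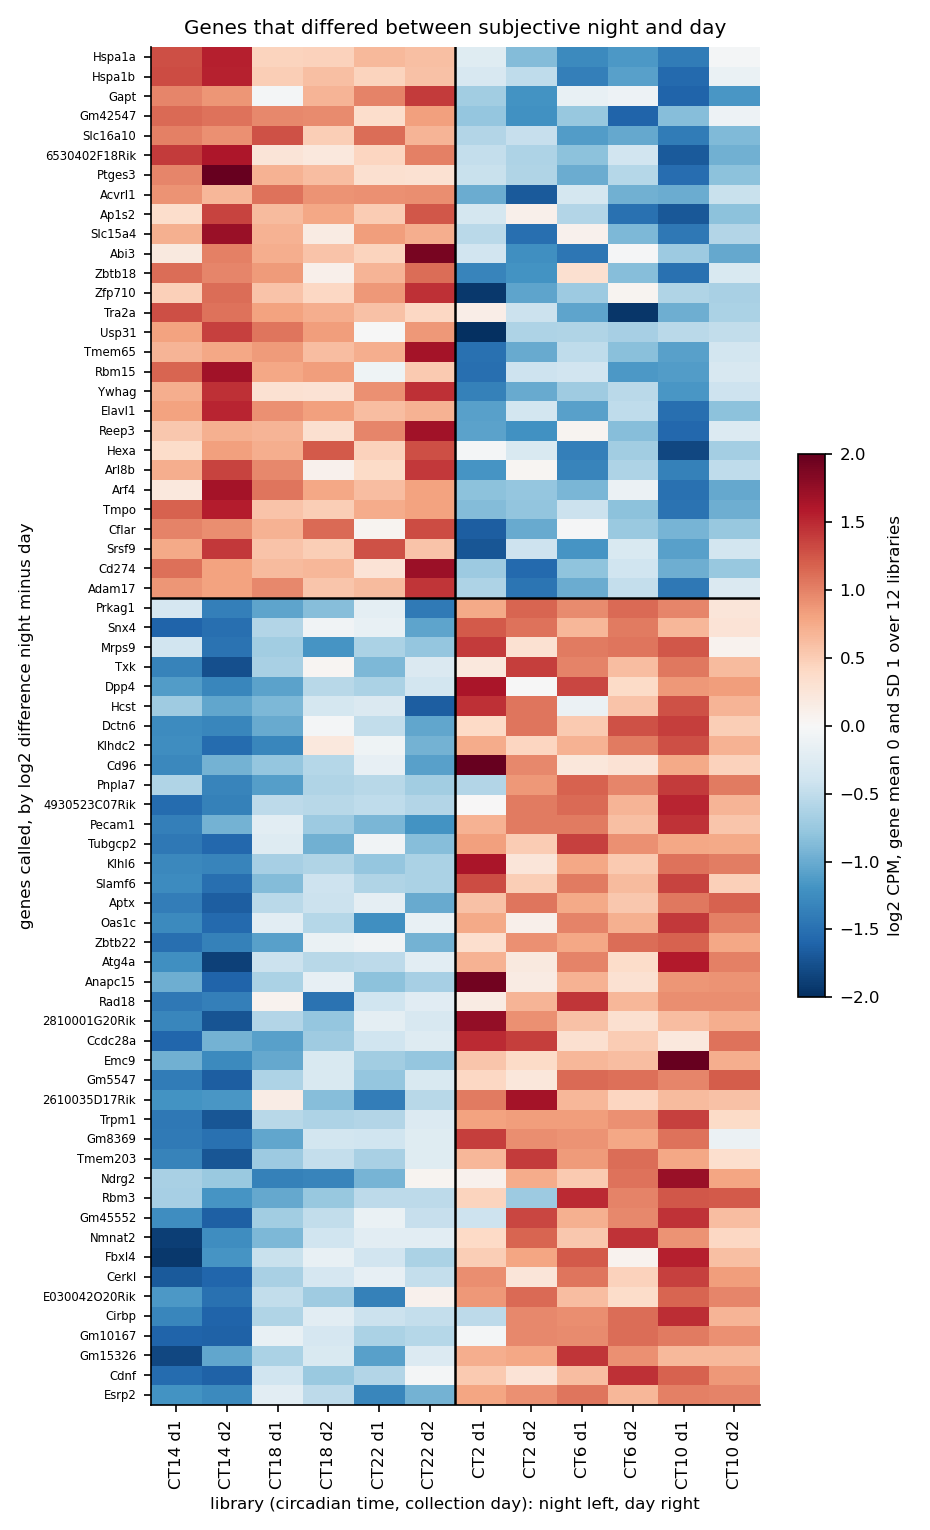
Log2 CPM of the 69 called genes (down the page) in the 12 libraries (across, with night left of the vertical line and day right of it; d1 and d2 are the collection days), each gene set to mean 0 and SD 1. The 28 genes above the horizontal line are mostly red at night and blue by day, the 41 below it mostly the reverse, and the heat shock genes Hspa1a and Hspa1b are reddest in the CT14 libraries.

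**Figure D2:**
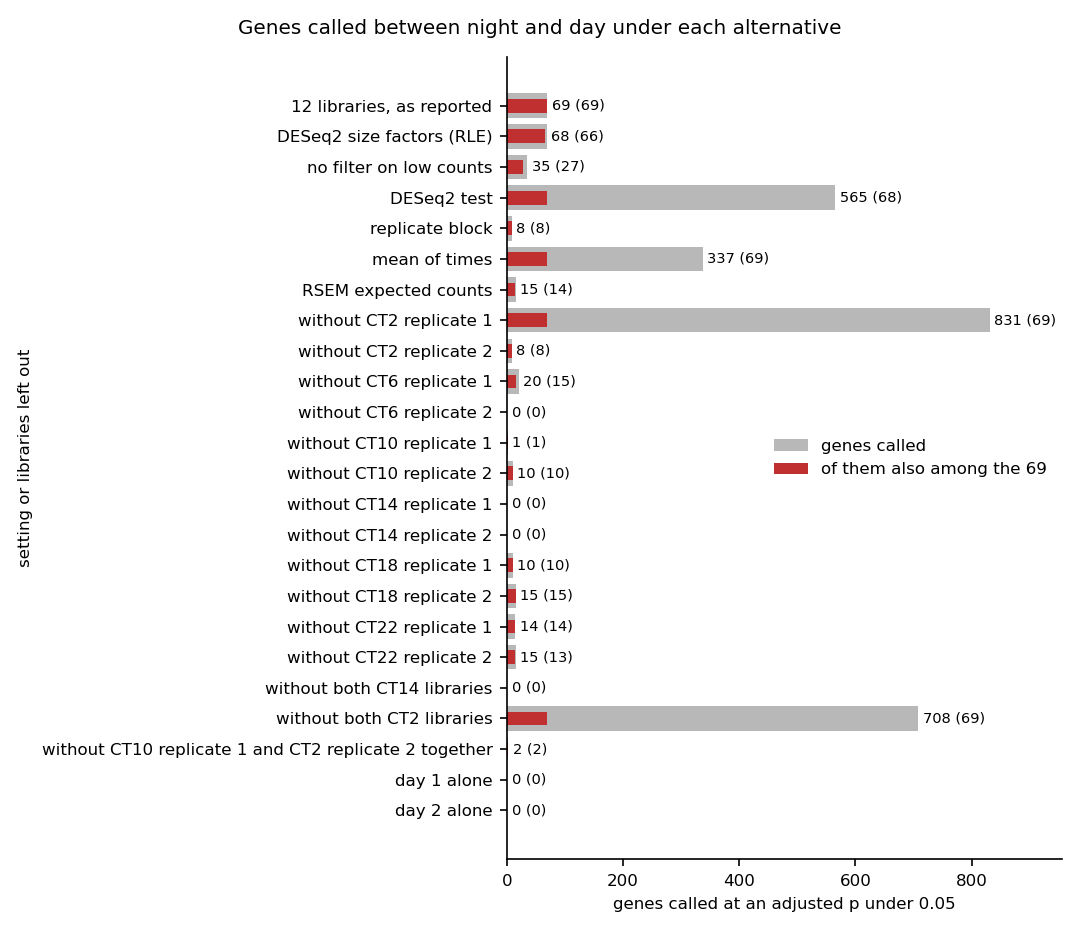
Number of genes called between night and day with all 12 libraries and under 23 alternatives (grey bars), with the number of them that are also among the 69 (red bars, and in brackets); replicate 1 and 2 are collection days 1 and 2. The count runs from 0 without a CT14 library to 831 without CT2 replicate 1.

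The gene of smallest p was Slc16a10, which encodes a transporter of aromatic amino acids. It had 18.2, 19.7 and 20.8 CPM (lowest, median, highest) at night and 13.2, 14.3 and 15.5 CPM by day. The groups were well apart, and the night level was steady over CT14, CT18 and CT22. The log2 difference was 0.44 ± 0.05 (standard error here and below), a 1.36-fold rise with an adjusted p of 0.0132. It was 0.53 on collection day 1 and 0.36 on collection day 2. The gene lies on chromosome 10 at 40033532 to 40142258 (GRCm38, minus strand, ENSMUSG00000019838.11).

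Elavl1 encodes HuR, an RNA-binding protein that stabilises messages with AU-rich elements. It had 104.2, 106 and 113 CPM at night and 85.9, 90.3 and 95.3 CPM by day. All night values exceeded all day values, by 0.24 ± 0.03 log2 (adjusted p = 0.0259). Acvrl1, a type I receptor of the TGF-beta and BMP family, had 14.8, 15.4 and 15.7 CPM at night and 10.6, 11.8 and 12.8 CPM by day. Its 6 night libraries stood within a narrow band above the day libraries, with a log2 difference of 0.36 ± 0.06 (adjusted p = 0.0259).

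Other genes that rose at night had known roles in signalling, in the secretory pathway and in RNA processing. Ywhag, a 14-3-3 adaptor protein, had a median of 109 CPM at night and 92.9 CPM by day, and Tmpo, a protein of the nuclear lamina, 246 and 218 CPM. Arf4, a GTPase of Golgi traffic, had medians of 89.8 CPM at night and 78.6 CPM by day. For the splicing regulator Tra2a these were 148 CPM at night and 123 CPM by day, and for the SR protein gene Srsf9 50.1 and 45.2 CPM. Rbm15, a subunit of the complex that methylates adenosine in RNA, had 50.3 CPM at night and 42.9 CPM by day. None of these 6 genes overlapped between the groups, and their log2 differences were 0.24, 0.19, 0.20, 0.27, 0.18 and 0.24.

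Among genes of immune regulation and survival, Cd274, which encodes the inhibitory ligand PD-L1, had 66.0, 68.1 and 72.9 CPM at night and 58.0, 61.3 and 62.9 CPM by day. The rise was 0.18 ± 0.03 log2 (adjusted p = 0.0447). Cflar encodes c-FLIP, an inhibitor of death receptor signalling, and had medians of 181 CPM at night and 159 CPM by day (0.18 log2). Adam17 encodes a protease that sheds proteins from the cell surface, with medians of 107 CPM at night and 97.0 CPM by day (0.16 log2). Usp31, of the deubiquitinase family, and Tmem65, a membrane protein gene, rose by 0.27 and 0.25 log2. Both had groups that did not overlap.

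Among the called genes, the largest differences were those of heat shock genes. Hspa1a and Hspa1b encode the stress-inducible cytosolic Hsp70, a chaperone that binds unfolded proteins. Hspa1b had 5.78, 6.91 and 22.8 CPM at night and 0.456, 1.27 and 2.78 CPM by day. Every night library exceeded every day library, and the CT14 libraries, at 16.9 and 22.8 CPM, were the highest of all. The log2 difference was 2.96 ± 0.47, a 7.76-fold rise (adjusted p = 0.0302), and it was 2.18 without the CT14 libraries. Hspa1a had 2.62, 3.32 and 10.9 CPM at night and 0.245, 0.413 and 1.41 CPM by day, a log2 difference of 3.02 ± 0.49 (adjusted p = 0.0302, and 0.05003 with the replicate block). These genes are near-identical neighbours on chromosome 17 (Hspa1b at 34956436 to 34959238 and Hspa1a at 34969190 to 34972156, minus strand). Reads that map to more than 1 place stood in a row of their own and entered no gene's count, so CPM may understate both genes. In RSEM's abundances, given below, the split of their reads is uncertain.

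The likeness of the pair extends to their promoters, which are shown because these genes had the largest differences among the called genes. Of the 300 bases from 250 before to 50 after the transcription start, 296 are identical (98.7%). The capitals mark the core of a heat shock element, GAANNTTC, which starts at base 147 in each window (RefSeq, GRCm38.p6; Hspa1a chr17:34972107-34972406 and Hspa1b chr17:34959189-34959488, minus strand).
Hspa1a: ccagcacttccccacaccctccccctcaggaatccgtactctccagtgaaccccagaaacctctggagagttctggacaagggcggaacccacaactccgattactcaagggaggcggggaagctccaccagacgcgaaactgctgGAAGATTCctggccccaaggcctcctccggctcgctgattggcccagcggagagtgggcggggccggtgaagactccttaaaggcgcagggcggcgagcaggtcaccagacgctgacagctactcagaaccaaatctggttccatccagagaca
Hspa1b: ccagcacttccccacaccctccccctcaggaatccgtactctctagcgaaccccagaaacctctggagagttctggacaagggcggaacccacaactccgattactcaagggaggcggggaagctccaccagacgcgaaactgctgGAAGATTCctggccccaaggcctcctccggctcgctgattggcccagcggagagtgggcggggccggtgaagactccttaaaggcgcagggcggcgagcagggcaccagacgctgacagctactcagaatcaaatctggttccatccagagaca
Promoter windows were at hand for 22 of the 28 genes that rose and for 34 of the 41 that fell. Motifs were searched on both strands, and a gene counted if any of its windows held the motif. Each share is set beside that of all 27025 genes with a window and that of the 10326 tested genes with a window. GAANNTTC was in 4 of the 22 (18.2%: Hspa1a, Hspa1b, Srsf9 and Ywhag) and in 5 of the 34 (14.7%), against 9.04% of all and 7.13% of tested genes. As the windows of Hspa1a and Hspa1b are nearly identical, these 2 are not independent matches. The other order of the same core, TTCNNGAA, which can overlap it, was in 0 of the 22 and in 4 of the 34 (11.8%), against 9.60% and 8.32%. The heat shock element with 3 alternating units, with no mismatch allowed, was in none of the 22 or the 34, against 0.662% and 0.571%. Elements with a mismatched unit were not searched for, so their presence in these windows is not known. The E-box CACGTG, the site of BMAL1 and CLOCK, was in 2 of the 22 (9.09%) and 2 of the 34 (5.88%), against 8.09% and 11.4%. The D-box TTATGNAA was in 0 of the 22 and in 3 of the 34 (8.82%), against 3.99% and 2.48%, and the ROR element TAGGTCA in 1 of the 22 (4.55%) and 0 of the 34, against 2.97% and 2.29%. These shares rest on few promoters and were not tested. The glucocorticoid receptor hexamer AGAACA was in 1 of the 22 (4.55%) and 10 of the 34 (29.4%), against 21.3% and 15.3%. The cAMP element TGACGTCA was in 1 of the 22 (4.55%) and 1 of the 34 (2.94%), against 2.03% and 3.43%, and the SREBP element TCACNCCAC in 0 of the 22 and 1 of the 34 (2.94%), against 1.44% and 1.36%.

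The third heat shock gene called was Ptges3, which encodes p23, a co-chaperone of Hsp90. It had 91.3, 97.0 and 122 CPM at night and 67.2, 77.0 and 80.5 CPM by day, with no overlap and a log2 difference of 0.41 ± 0.07 (adjusted p = 0.0302). Of the 26 tested heat shock genes, 3 were called higher and 0 lower, against 0.183% and 0.269% of all tested genes. Of the 26, 5 lay above the day libraries without overlap and 25 had a difference above 0, against 0.917% and 48.4% of all. The median over the list was 0.34 log2, where that of all tested genes was -0.0050 with quartiles at -0.10 and 0.08. The exception was Cdc37, the kinase adaptor of Hsp90, at -0.05. In the fit with 1 mean per circadian time 16 of the 26 were called, where 337 of all genes were. Without CT2 of collection day 1 15 were called, where 831 of all genes were. With the replicate block 1 was called, and without CT2 of collection day 2, CT6 of day 2 or CT10 of day 1 0 were. Without the CT14 libraries none was called and the median was 0.18, with 25 of 26 still above 0.

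Chaperone messages that are abundant at all times had smaller differences than Hspa1a and Hspa1b. Hspa8, the constitutive Hsp70, averaged 2187 TPM at night and 1590 TPM by day, where TPM is RSEM's abundance scaled to transcript length. In TPM it was the highest of the list, while Hspa1a averaged 5.52 TPM at night and 0.703 TPM by day. The log2 difference of Hspa8 was 0.41 ± 0.13 and missed the threshold. Hsph1, the Hsp110 nucleotide exchange factor, had 134, 157 and 365 CPM at night and 91.0, 108 and 135 CPM by day, a log2 difference of 0.96 ± 0.24 that also missed it (adjusted p = 0.0820). Its highest values were in the CT14 libraries, and the lowest night value lay just under the highest day value. Further members had differences of 0.51 (Stip1, the link between Hsp70 and Hsp90), 0.48 (Dnaja1) and 0.42 (Dnajb1, both of the Hsp40 family). Hsp90ab1, at 1189 TPM at night and 996 TPM by day, had 0.21, and Hsf1, the factor that drives these genes, 0.09.

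**Figure D3:**
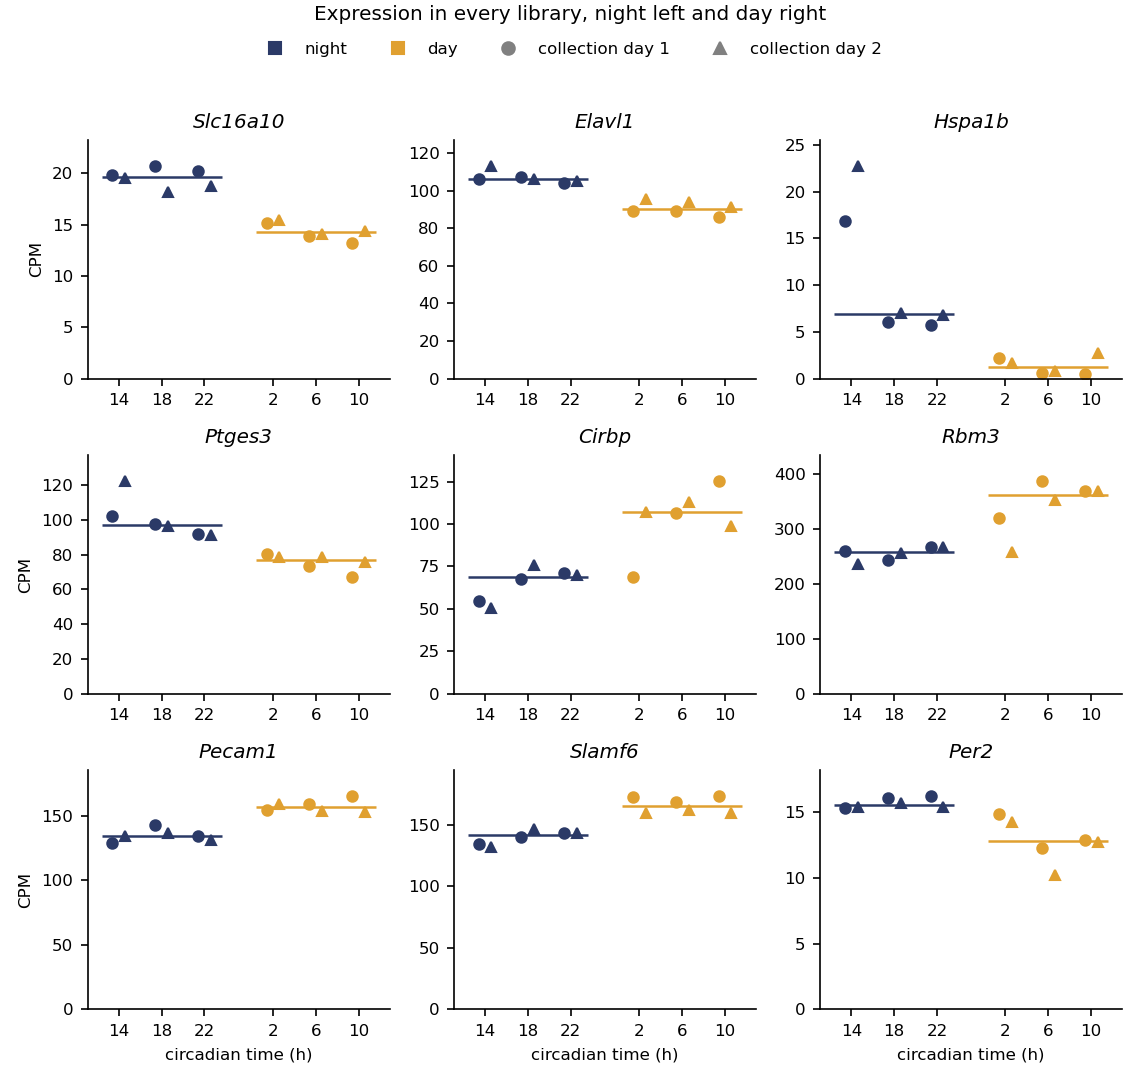
CPM of 9 genes in each library by circadian time, night in dark blue on the left and day in orange on the right, with circles for collection day 1, triangles for day 2 and lines at the group medians. Slc16a10, Elavl1, Hspa1b, Ptges3 and Per2 lie higher at night, Pecam1 and Slamf6 lie lower without overlap, and Cirbp and Rbm3 are lower except for 1 CT2 library each; Per2 did not pass the test.

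Cold-inducible RNA-binding genes moved the other way. Cirbp, which encodes a protein induced by mild cold, had 50.3, 68.9 and 75.9 CPM at night and 69.1, 107 and 125 CPM by day. The lowest day value, 69.1 CPM, was CT2 of collection day 1, and the other 5 day libraries started at 98.8 CPM. The log2 difference was -0.67 ± 0.13 (adjusted p = 0.0447, and 0.0626 with the replicate block), and it was -0.54 without the CT14 libraries and -0.77 without CT2 of collection day 1. Rbm3, its relative, had 236, 258 and 267 CPM at night and 257, 360 and 387 CPM by day, and its lowest day value was CT2 of collection day 2. Its log2 difference was -0.42 ± 0.08 (adjusted p = 0.0447, and 0.0626 with the replicate block). Unlike those of Hspa1b, its night values were alike at the 3 times. The third gene of the list, Srsf5, had -0.14 and was not called, so 2 of 3 were called lower, against 0.269% of all tested genes. Of the 12 fits with 1 library left out, Cirbp was called in 1 and Rbm3 in 2. With the replicate block or with RSEM counts, 0 of the 3 were called. In TPM, Rbm3 averaged 372 at night and 477 by day, and Cirbp 77.4 at night and 117 by day.

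Surface molecules of T cells were among the genes that fell at night. Pecam1 encodes CD31, an adhesion molecule of endothelium and of naive T cells, and had 129, 134 and 143 CPM at night and 153, 157 and 165 CPM by day. The groups did not overlap, and the log2 difference was -0.23 ± 0.03 (adjusted p = 0.0259). Slamf6, a receptor of the SLAM family, had 131, 141 and 146 CPM at night and 159, 165 and 173 CPM by day, with -0.25 ± 0.04 (adjusted p = 0.0259). Dpp4, the peptidase CD26, had medians of 215 CPM at night and 247 CPM by day (-0.20 log2). For Cd96, a receptor that binds nectin-like ligands, these were 242 CPM at night and 276 CPM by day (-0.21 log2). Hcst, the adaptor DAP10 of the receptor NKG2D, had 64.8 CPM at night and 74.8 CPM by day (-0.20 log2). In the signalling chain below, Txk, a Tec family kinase, had 139 CPM at night and 159 CPM by day, with -0.19 ± 0.04 (adjusted p = 0.0496).

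Other genes that fell had roles in repair, the cytoskeleton and metabolism. Klhl6, an adaptor of a ubiquitin ligase, had 171, 180.4 and 182 CPM at night and 197, 209.8 and 224 CPM by day, with no overlap and a log2 difference of -0.24 ± 0.04 (adjusted p = 0.0259). The dynactin subunit Dctn6 and the gamma-tubulin complex subunit Tubgcp2 fell by 0.20 and 0.23 log2. The DNA repair genes Aptx and Rad18 fell by 0.27 and 0.31, and the zinc finger gene Zbtb22 by 0.28. Mrps9, of the mitochondrial ribosome, fell by 0.19, and Prkag1, a subunit of the energy sensor AMPK, by 0.16. The cation channel gene Trpm1 had 11.3 CPM at night and 14.2 CPM by day (medians, -0.39 log2), and Nmnat2, an enzyme of NAD synthesis, 9.20 and 12.0 CPM (-0.45 log2). Larger differences occurred at low levels. Esrp2, a splicing factor best known from epithelia, had a median of 0.359 CPM at night and 0.756 CPM by day (-0.95 log2), and Cdnf, which encodes a neurotrophic factor, 1.35 and 2.13 CPM (-0.75 log2).

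The core clock held no call between night and day. None of its 11 tested genes passed, and the median difference was -0.08 log2. Per2, a repressor of the loop, came closest, with 15.3, 15.6 and 16.3 CPM at night and 10.23, 12.8 and 14.8 CPM by day. Its groups did not overlap, and its log2 difference of 0.28 ± 0.08 had an adjusted p of 0.0916. It was called in the fit with 1 mean per circadian time (adjusted p = 0.0369), without CT2 of collection day 1 and by DESeq2. Of the other repressor genes, Per1 and Per3 had -0.08 and -0.13, and Cry1 and Cry2 had 0.11 and 0.07. The activator genes Arntl (BMAL1) and Clock had -0.08 and 0.03. Nr1d1 and Nr1d2, the REV-ERB genes, had -0.17 and 0.01, and Rora, of the ROR family, -0.12.

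Clock output genes were not called either, with 0 of 10 and a median of 0.15 log2. That median was 0.09 without CT2 of collection day 2 or without CT14 of day 1, and 0.03 without CT10 of day 1 and CT2 of day 2 together, and 1 gene was called higher without CT2 of day 1. The differences were 0.28 for Nfil3, a repressor that competes for the D-box, 0.27 for Ciart, an inhibitor of BMAL1 and CLOCK, and 0.23 for Wee1, a kinase that holds back mitosis. The D-box activators Dbp, Tef and Hlf had -0.01, 0.0037 and 0.08, close to 0 against standard errors of 0.08 to 0.17. Bhlhe40 and Bhlhe41, further E-box repressors, had 0.19 each, Nampt, the gate of NAD salvage, 0.11, and Usp2 -0.09. Of the 11 kinases, ligases and partners of the clock proteins none was called, and 2 were called lower without CT2 of collection day 1. Timeless had medians of 41.5 CPM at night and 48.5 CPM by day (-0.24 log2, adjusted p = 0.0671).

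A contrast of 12 h blocks can miss a gene that peaks near CT0 or CT12. The 3 times of 1 group were therefore also compared with each other, in a fit with 1 mean per circadian time. Among the night times 9 genes differed (0.059%): the chaperone genes Hsph1, Ahsa2, Stip1, Chordc1, St13 and Dnajb1, and Lbp, Gprasp1 and Lman2l. Gprasp1 had 45.7 to 68.3 CPM at night and 43.7 to 57.1 CPM by day, and its night to day difference of 0.15 log2 was not called. Among the day times 5 genes differed (0.0328%), Art2b, Cpt1a, Ddit4, Ksr2 and Cxcr4. Of these, Art2b, an ADP-ribosyltransferase of the T cell surface, was at 119 CPM at CT2, 65.2 at CT6 and 66.2 at CT10, and its night values, 81.5 to 94.97 CPM, lay inside that range. Cpt1a, which brings fatty acids to mitochondria, had 53.9, 103 and 95.2 CPM at the 3 day times and a night to day difference of -0.23 ± 0.17 log2. None of these 14 genes was called between night and day. The count among night times was 43 and 44 without the CT2 libraries, 4 and 1 without the CT14 libraries, 5 without CT18 of collection day 1 and 3 without either CT22 library. Among day times it was 1694 without CT2 of collection day 2 and 14 without CT6 of day 2. It was 2 or 3 without CT6 of day 1 or without any 1 of the CT10, CT18 and CT22 libraries.

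Each collection day also gave its own night to day difference. The interaction of phase with collection day gave 0 genes in edgeR's quasi-likelihood test, with a smallest adjusted p of 0.980 and 313 genes at an unadjusted p under 0.05. Of the 200 genes with the smallest p on day 1 alone, 92.0% had the same sign on day 2, and of the 200 chosen on day 2, 87% had it on day 1, where 63.9% of all tested genes agreed in sign. Either collection day had, in its subjective day group, 1 of the libraries lowest in monocyte and macrophage markers. For collection day 1 it was the CT10 library (summed level 416 CPM), and for collection day 2 the CT2 library (440 CPM). The part of cell make-up in the shared signs was not tested. Within 1 collection day, with 3 libraries against 3, edgeR's test called 0 genes on either day, and 877 genes on day 1 and 2247 on day 2 had an unadjusted p under 0.05.

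Most endoplasmic reticulum chaperones, interferon genes and early response genes had differences above 0, and none of them was called. Members of a list were measured in the same libraries, so counts in 1 direction are not independent. Of all tested genes, 48.4% had a difference above 0. In the list of endoplasmic reticulum folding and the unfolded protein response, 19 of 21 differences were above 0, with a median of 0.14 log2 and none called. Hyou1, an Hsp70 relative of that compartment, had 142, 145 and 149 CPM at night and 114, 126 and 139 CPM by day, without overlap (0.19 ± 0.04, adjusted p = 0.0627). Without CT2 of collection day 1, 10 of the 21 were called higher, where 288 of all genes were called higher and 543 lower. None of the 21 was called with any other single library left out. Of the interferon response 24 of 26 were above 0 (median 0.14 log2, none called), with 0.41 for the antiviral sensor gene Oas2. Of the immediate early genes 21 of 24 were above 0 (median 0.12 log2, none called), and Fosl2, an AP-1 subunit, had 28.87, 29.8 and 29.9 CPM at night and 21.7, 24.7 and 28.85 CPM by day. Without CT2 of collection day 1, 1 immediate early gene was called higher, beside the same 288 of all genes. Without CT10 of collection day 1 and CT2 of collection day 2, the libraries lowest in markers of myeloid cells, the median was 0.08 log2 for interferon genes and 0.08 for immediate early genes.

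Of 16 tested genes of naive T cells, 15 had a difference below 0, with a median of -0.10 log2. Txk was the single call, where 0.269% of all tested genes were called lower. It was called in 1 of the 12 fits with 1 library left out, and its adjusted p was 0.0692 with the replicate block. Il7r, the receptor of the survival cytokine interleukin 7, had medians of 482 CPM at night and 548 CPM by day (-0.20 log2). Genes of effector and memory cells had 19 of 22 above 0 (median 0.09, none called), with 0.43 for the chemokine receptor Cx3cr1 and 0.17 for Tnf. Without the libraries lowest in myeloid markers, that count was 13 of 22 with a median of 0.02, and the median of the naive list was -0.05. Without CT2 of collection day 1, 4 naive genes were called lower and 1 effector or memory gene higher, with a median of 0.15 for effector and memory genes. Of all genes, 288 were then called higher and 543 lower. In the list of trafficking and adhesion 12 of 22 were above 0 and none was called, and 3 were called lower without CT2 of collection day 1. S1pr4 and S1pr1, receptors of the egress signal sphingosine 1-phosphate, had -0.16 and -0.14, and the integrin genes Itgal and Itgb2 0.13 and 0.12.

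Within T cell receptor signalling, 14 of 26 were above 0 (median 0.0070 log2), and Txk, also counted in the naive list, was called lower. That count was 10 of 26, with 1 called higher and 1 lower, without CT2 of collection day 1, and 17 of 26 without the libraries lowest in myeloid markers. The phosphatase gene Ptpn6 (SHP-1) had medians of 478 CPM at night and 433 CPM by day, a difference of 0.17 that missed the threshold. Of cytokine receptors and their feedback genes 17 of 24 were above 0, none called, with 0.21 for Cish and 0.20 for Socs1, inhibitors of that pathway. Of the genes of quiescence and PI3K signalling 15 of 27 were above 0, none called. Pik3ip1, an inhibitor of PI3K, had 111, 114 and 123 CPM at night and 121, 145 and 172 CPM by day, and with an adjusted p of 0.0506 it lay just past the threshold (-0.34 ± 0.07). Glucocorticoid-induced genes were split, 12 of 21 above 0 and none called, with -0.23 for Tsc22d3 (GILZ), 0.03 for Fkbp5 and 0.66 for Cebpd. Of the splicing regulators 16 of 22 were above 0, and Tra2a was the 1 call, where 0.183% of all tested genes were called higher. Tra2b, the paralogue of Tra2a, had 0.16, and Hnrnpa1 -0.26. Without CT2 of collection day 1, 10 of the 22 were above 0, with 3 called higher and 2 lower. Without that library, 2 cytokine receptor and feedback genes, 3 quiescence genes and 2 glucocorticoid-induced genes were called lower. In that setting 543 of all genes were called lower and 288 higher, so these small counts are not read as list results.

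**Figure D4:**
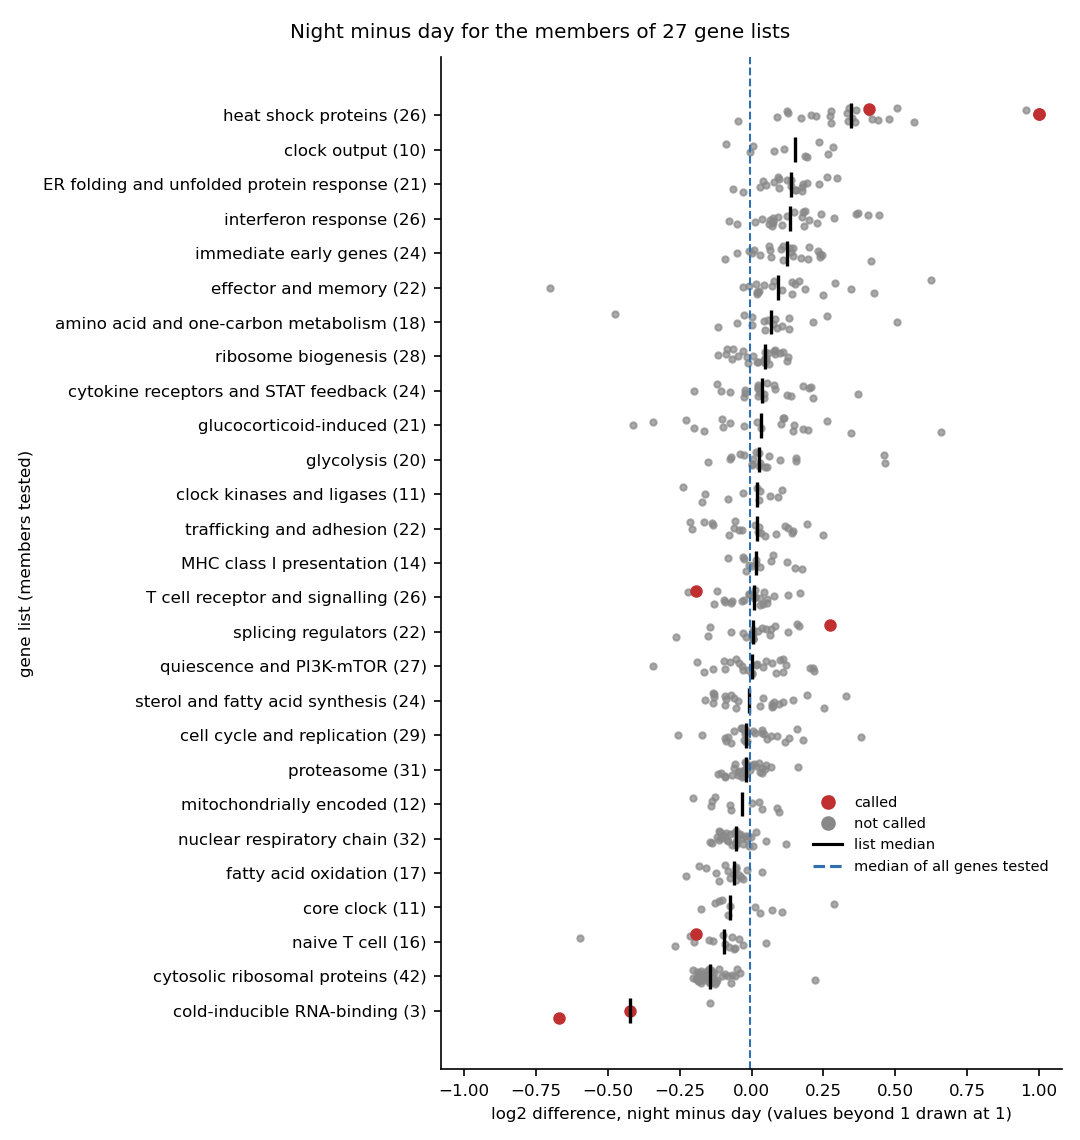
Log2 difference, night minus day, of each tested member of 27 gene lists (points, with called genes in red, and values beyond 1 drawn at 1), with the list median (black bar) and the median of all tested genes (dashed line). Heat shock proteins lie furthest to the right with a median of 0.34, and the cold-inducible genes furthest to the left with -0.42.

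Metabolic lists held no calls with all libraries. Without CT2 of collection day 1, 1 glycolysis gene was called higher, 2 fatty acid oxidation genes lower, 1 sterol gene higher and 1 lower, and 1 amino acid gene lower. Over all genes that setting called 288 higher and 543 lower. Hk2, the inducible hexokinase of glycolysis, had 12.8, 15.7 and 18.7 CPM at night and 9.11, 11.8 and 12.4 CPM by day, without overlap. Its difference of 0.46 ± 0.10 had an adjusted p of 0.0506, and 14 of 20 glycolysis genes were above 0 with a median of 0.03, which was 0.05 and 0.01 without CT2 of collection day 1 and of day 2. Of fatty acid oxidation 16 of 17 were below 0, by a median of -0.06 (14 of 17 and -0.03 without CT2 of collection day 1), and Hadhb, a subunit of the trifunctional enzyme, had 65.1 to 70.7 CPM at night and 71.6 to 86.0 CPM by day. Of sterol and fatty acid synthesis 12 of 24 were above 0 (median -0.0089), and the cholesterol exporter gene Abcg1 had 193 CPM at night and 166 CPM by day (0.25, adjusted p = 0.0690). For amino acid and one-carbon metabolism 14 of 18 were above 0 (median 0.07), and Slc38a2, a transporter of neutral amino acids, had 0.13 with no overlap.

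Cytosolic ribosomal protein genes were below 0 in 41 of 42, by a median of -0.14 log2, with none called. That median was -0.07 without CT2 of collection day 1, the library with low long transcripts. Rpl3 had medians of 1829 CPM at night and 2028 CPM by day (-0.17). Nuclear genes of the respiratory chain were below 0 in 28 of 32 (median -0.05), but in 15 of 32 (median 0.0036) without that library. Mitochondrially encoded genes were above 0 in 6 of 12 (median -0.03), proteasome genes in 11 of 31 (median -0.02, but 26 of 31 and 0.04 without that library), and genes of ribosome biogenesis in 19 of 28 (median 0.05), none called. Cell cycle and replication genes were above 0 in 13 of 29 (median -0.02, but 19 of 29 and 0.04 without that library), with 0.18 for the D-type cyclin gene Ccnd2. Genes of MHC class I presentation were above 0 in 9 of 14 (median 0.02), and in 12 of 14 (median 0.05) without that library, with 2 called higher and 1 lower. Without it, 1 gene each of the respiratory chain, ribosome biogenesis and the proteasome was called higher and 1 cytosolic ribosomal protein gene lower. The counts over all genes were then 288 higher and 543 lower.

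Messages of other cell types were present in all libraries. In bulk RNA, fewer cells of a type and less RNA per cell cannot be told apart. None of the markers tested was called apart from Pecam1. All 17 markers of monocytes and macrophages had a difference above 0, with a median of 0.66 log2, and 1 was called higher without CT2 of collection day 1. Their summed level was 709.7, 1145 and 1701 CPM at night and 416, 730 and 1143 CPM by day, so the groups overlapped, and the lowest values were CT10 of collection day 1 and CT2 of collection day 2. Adgre1, the macrophage marker F4/80, had medians of 14.3 CPM at night and 9.40 CPM by day (0.70 ± 0.23, adjusted p = 0.146). Without those libraries the median over the list was 0.38. Of 8 tested neutrophil markers 7 were above 0 (median 0.90, and 0.55 without those libraries), with sums of 28.1 to 108 CPM at night and 13.9 to 66.2 CPM by day.

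For markers of other immune cells, the medians were 0.16 log2 for 16 B cell genes, 0.17 for 8 genes of CD4 and regulatory T cells, 0.18 for 11 of dendritic cells and 0.18 for 10 of NK cells, with none called. Without the libraries lowest in myeloid markers these 4 medians were 0.03, 0.03, 0.01 and 0.0074. The summed markers of CD8 T cells were 6556, 7089 and 7250 CPM at night and 6326, 7165 and 7905 CPM by day, with a median difference of -0.03 log2 over 9 genes. Medians of the 5 gamma delta T cell genes and the 4 plasma cell genes had no stable sign. For gamma delta T cells the median was 0.03, with 0.13 on collection day 1 and -0.07 on day 2. For plasma cells it was 0.12, with -0.27 on day 1 and 0.57 on day 2, and it ran from 0.01 without CT2 of day 2 to 0.38 without CT6 of day 1, where 1 gene was called. Summed markers of stroma and endothelium were 141 to 163 CPM at night and 167 to 197 CPM by day without overlap, and Pecam1, which T cells express too, made up most of that sum. Of the 9 tested members 4 were above 0, with a median of -0.07, which was 0.25 without CT6 of collection day 1 and 0.06 without CT14 of day 1. It was -0.24 on day 1 alone and 0.41 on day 2 alone. Every marker of the 11 lists had counts in at least 1 library.

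The 69 calls can be set beside these markers. With the libraries lowest in myeloid markers left out, 2 of the 69 were called. All 69 kept their sign, which was nearly fixed in advance because most had groups without overlap. Slc16a10 then had 0.44 log2, Elavl1 0.23, Hspa1b 2.80, Cirbp -0.58, Rbm3 -0.49, Pecam1 -0.21 and Slamf6 -0.25, where the values with all libraries were 0.44, 0.24, 2.96, -0.67, -0.42, -0.23 and -0.25. These 7 genes are examples. Most of the 69 differences shrank in size, and most of those of the genes that rose did, while a smaller part grew. Acvrl1, for example, went from 0.36 to 0.32 and Adam17 from 0.16 to 0.13. The difference shrank from 0.64 to 0.53 for Gapt, from 0.30 to 0.24 for Slc15a4 and from 0.22 to 0.18 for Reep3. It grew in size from -0.31 to -0.34 for Anapc15, from 0.27 to 0.29 for Usp31 and from -0.24 to -0.25 for Klhl6. The part of other cell types in the differences of single genes was not tested.

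**Figure D5:**
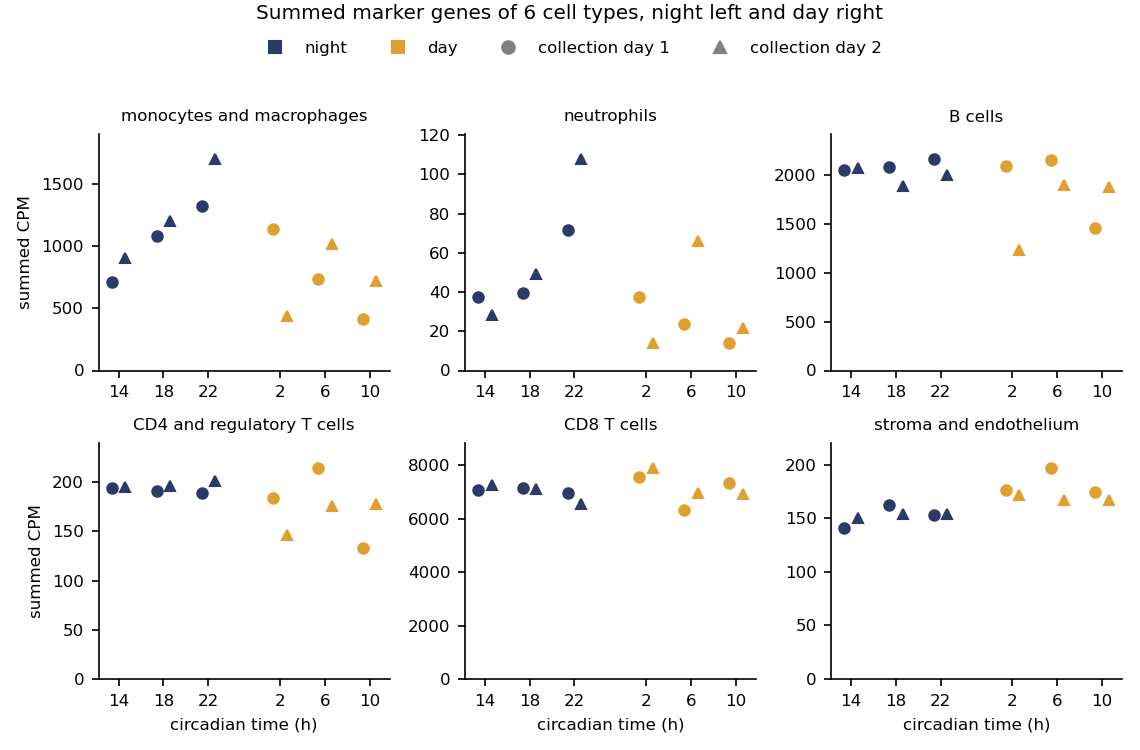
Summed CPM of marker genes of 6 cell types in each library by circadian time, night in dark blue on the left and day in orange on the right, with circles for collection day 1 and triangles for day 2. Myeloid sums overlap between the groups and are highest at CT22, CD8 T cell sums stay between 6326 and 7905 CPM, and the stroma and endothelium sums are lower at night without overlap.

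Genes called in the 2 directions had unequal median lengths, a description with no test. The longest annotated transcript had a median of 3793 bases for the 28 genes that rose and 2604 bases for the 41 that fell, against 2971 bases for all tested genes. Over all genes the median difference was -0.07 log2 in the fifth with the shortest transcripts, of which 35.4% were above 0, and 0.02 in the fifth with the longest, of which 59.6% were. CT2 of collection day 1, a day library, was the 1 with low long transcripts, and the part of transcript length in the calls was not tested. Of the 69 genes, 60 are protein-coding, and 8 had a mean under 5 CPM.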

How the data were processed

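RNA of CD8+ T cells was measured in 12 libraries, made with TriZol, an RNeasy kit and KAPA HyperPrep polyA selection, per the labels. The submitters' processing notes list bcl2fastq 2.19, Trimmomatic 0.35, the aligner STAR 2.5.1b, the quantifier RSEM 1.2.28 and the build GRCm38. Which gene annotation was used is not given in the sources used here. For each library, the authors deposited raw read counts per gene in STAR's layout, with 1 column per strand setting. Column 4 was used, because in the other stranded column 77.6% to 80.9% of fragments matched no gene, against 11.4% to 13.9% here. The 4 rows that name no gene held 29.3% to 31.2% of fragments and entered neither library sizes nor tests. RSEM files from the authors gave the deposited expected counts (rounded, for 1 alternative) and deposited TPM, used only to set levels of genes side by side. Of 50600 identifiers, 50376 matched a symbol in GENCODE M21 (GRCm38), 45737 with the same version.

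Genes were filtered with edgeR's filterByExpr (phase as group), which left 15266, scaled with TMM, and tested with edgeR 4.0.16 quasi-likelihood F tests in R 4.3.3. A gene was called at a Benjamini-Hochberg adjusted p under 0.05 over all tested genes. The common biological coefficient of variation was 0.108. Night against day used 6 libraries against 6 with no covariate. Further tests were the interaction with collection day and, with 1 coefficient per circadian time, differences among the 3 night or the 3 day times. Library values were compared by exact two-sided permutation of 6 of 12 libraries (924 arrangements, adjusted over 3 measures, all adjusted p = 0.448). Replicate libraries differed by more than sampling noise at every time, so none was merged. The tests were checked on simulated counts.

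Replicate numbers stand for collection days in the labels, so they pair libraries. Over 10150 genes, deviations of day 2 from day 1 correlated between 15 pairs of times from -0.60 to 0.35 (median 0.08), with 6 above 0.1. Alternatives were DESeq2 1.42.0, DESeq2 size factors, no filter, RSEM counts, the replicate block, means per time, and libraries, times or days left out.

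Members and gene lists were chosen with earlier results of these data known. The naming rule took all tested clock genes, the 12 genes of smallest p each way, the 8 largest differences each way among genes without overlap, the 2 genes of smallest p per other list, Cd8a, Cd8b1, Cd3e, and the 4 of smallest p for each further test, with a mean of at least 5 CPM where p or size chose. It left out predicted genes, cDNA clones and receptor segments and gave 133 genes, not all given in the text. Srsf9, Rbm15, Cflar, Adam17, Cd96, Hcst, Rad18, Prkag1, Esrp2, Cdnf and list members outside the rule were chosen after their values were seen. A few genes of the rule are not reported here.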

Additional observations from a re-analysis of the deposited data

Results flagged for a closer look

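In 11 of 178 groups of 6 libraries (6.18%), 1 library lay far from the rest, where chance flags about 1 in 20 groups. Among night libraries, CT14 of collection day 2 had 113.4 CPM of Elavl1 (104.2 to 107.2 in the other 5), 122.4 CPM of Ptges3 (91.31 to 102.3) and 6.379 CPM of the pseudogene Rpl31-ps8 (4.591 to 5.235). CT22 of day 2 had 22.13 CPM of Tmem65 (19.94 to 20.41), 33.16 CPM of Myadm (23.57 to 26.54) and 33.69 CPM of Maf (27.82 to 29.52). CT18 of day 2 had 6.157 CPM of summed erythroid and platelet markers (3.425 to 4.136).

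Among day libraries, CT2 of collection day 1 had 28.73 CPM of Usp31 (33.57 to 34.24 in the other 5). The group of genes with the longest transcripts stood at -0.247 log2 there against the group with the shortest, of 5 groups by length (-0.03256 to 0.05289). CT6 of day 1 had 44.8 CPM of summed plasma cell markers (9.15 to 13.95) and 196.9 CPM of summed markers of stroma and endothelium (167.1 to 176.5).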

How the results depend on the processing

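The count of 69 genes called between night and day moved widely. It was 35 with no filter on low counts, 565 with DESeq2, 8 with the replicate block, 337 with means per time and 15 with RSEM counts. It was 708 without both CT2 libraries and 2 without CT10 of day 1 and CT2 of day 2. Without both CT14 libraries it was 0 (1939 genes at an unadjusted p under 0.05), and it was 0 on each collection day alone. Leaving out 1 library gave 0 to 831. With DESeq2 size factors it was 68, of which 66 were among the 69. Among night times the count was 544 with no filter and 1 to 44 with 1 library left out. Among day times it was 1084 with no filter, 3 with the replicate block and 2 to 1694 with 1 library left out. The interaction with day gave 0 throughout. The causes were not tested.

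Over 133 named genes and 3058 gene and alternative combinations, 43 changed sign, none of them in a called gene. Called genes were chosen from these libraries and most had groups without overlap, so their signs could hardly turn. Of 690 combinations for 30 called genes, 255 stayed past the threshold. With 1 library left out, the log2 difference ran from -0.0578 to 0.028 for Dbp, from -0.0614 to 0.167 for Hlf, from -0.0385 to 0.0432 for Nr1d2, from -0.0587 to 0.0523 for Tef and from -0.0613 to 0.00977 for Cd8a. Without both CT2 libraries the signs turned for Cry2 (-0.0144), Bhlhe41 (-0.0313), Nr1d2 (-0.0358), Tef (-0.108) and Cd8a (0.0172). Without both CT14 libraries they turned for Hlf (-0.0429), Tef (-0.0475) and Gprasp1 (-0.0423). Without CT10 of day 1 and CT2 of day 2 they turned for Bhlhe40 (-0.0158), Mzb1 (-0.0926), Tcrg-C2 (-0.0239) and Cd8a (0.0444). On day 1 alone they turned for Clock (-0.0288), Dbp (0.0393), Usp2 (0.0737), Tef (-0.031), Mzb1 (-0.227), Cd8a (0.0154), Lbhd1 (-0.272) and Usf2 (0.0983). On day 2 alone they turned for Bhlhe41 (-0.0139), Hlf (-0.0902), Nr1d2 (-0.0686), Sdc1 (0.00803), Tcrg-C2 (-0.0174), Cd3e (-0.00614) and Rpl31-ps8 (0.0414). The replicate block changed no sign.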

Other observations

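Some genes had larger differences than most called genes, with night and day libraries that did not overlap, yet did not pass the test. Myadm, a membrane protein gene first known from myeloid differentiation, had 23.6, 26.0 and 33.2 CPM (lowest, median, highest) at night and 9.99, 21.4 and 22.1 CPM by day, a log2 difference of 0.57. Sulf2, which encodes a sulfatase of heparan sulfate, had medians of 24.3 CPM at night and 18.9 CPM by day, with a difference of 0.54. For Myadm, Sulf2 and Maf, the lowest day values were those of CT10 of collection day 1 and CT2 of day 2, the libraries also lowest in markers of monocytes and macrophages, and their part in these differences was not tested. The transcription factor genes Lyl1 and Maf had 0.52 and 0.47, and the adhesion gene Cadm3 0.45. On the other side, Slc14a1, a urea transporter gene, had 40.4, 60.7 and 62.8 CPM at night and 66.1, 72.3 and 78.8 CPM by day, with -0.40. The non-coding RNA gene Ifngas1, a neighbour of the interferon gamma gene, had 7.95 to 13.1 CPM at night and 13.8 to 19.0 CPM by day (-0.57), and Mettl27 and Isoc2b had -0.50 and -0.41. These genes were picked for their size, and 314 of all tested genes had groups without overlap.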
